A study of Ictidomys tridecemlineatus with 31 samples.

Results

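The hypoxia response genes studied here are 10 named genes of the pathway that senses and answers low oxygen, namely Hif1a, Epas1, Egln1, Egln2, Egln3, Vegfa, Bnip3, Adm, Hilpda, and Vhl. They were found by gene symbol, with case ignored, and 9 of the 10 had a row among the 12863 genes of the kidney table. Hilpda, a lipid droplet protein, was not matched by symbol and was not analysed here. Each of the 9 had a single row.

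Cells sense oxygen through the alpha subunits of hypoxia-inducible factor (HIF). When oxygen is plentiful, prolyl hydroxylases mark the alpha subunit, the von Hippel-Lindau protein binds it, and it is degraded. When oxygen is low, the alpha subunit persists and HIF turns on genes for blood vessel growth, glycolysis, and mitochondrial turnover. Much of this control acts on the protein, so the mRNA of an alpha subunit is not a measure of HIF activity. The renal medulla works at low oxygen even in health, and the hibernating kidney passes between torpor, with little blood flow, and rewarming, when flow returns.

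Kidneys came from 31 13-lined ground squirrels, Ictidomys tridecemlineatus, with 1 library for each animal, and the animals carried temperature devices. Summer active animals (SA, n = 5) were fattening in August and were warm, as were spring dark animals (SpD, n = 5), which had finished hibernating but were still housed in the dark hibernaculum. The winter groups were entrance (Ent, n = 5), cooling into torpor, early arousing (EAr, n = 5), at the start of rewarming, later arousing (LAr, n = 6), still rewarming, and interbout aroused (IBA, n = 5), soon after rewarming. No group was sampled deep in torpor. Both sexes were in every group, and the labels gave no animal ages. All animals were anesthetized, bled, and perfused with cold buffer, and all RNA was selected for polyadenylation. SA, EAr, and LAr animals were all from experiment 2, whereas IBA, Ent, and SpD each held 3 animals of experiment 1 and 2 of experiment 2, which used another library kit. Animals K113 (LAr) and K137 (SA), which the study removed as outliers, are shown apart. The tests below used the other 29 animals unless another set is named.

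Values are the authors' batch-corrected rlog values, a regularized log2 scale on which 1 unit is 2-fold, and rlog draws differences of low genes toward 0. They are not per unit of gene length, so levels are compared between states and never between genes. Differences are written as the first state minus the second, on the log2 scale, from a limma model with state, sex, and experiment as terms. The q values are p values after Benjamini-Hochberg adjustment over all 12863 genes, and a gene was called differentially expressed (DE) at q under 0.001, the study's threshold, with 0.05 given as a second threshold.

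Kidney marker genes were present in all groups, although their levels varied among animals. All 5 proximal tubule markers, both thick ascending limb markers, all 4 collecting duct markers, all 3 podocyte markers, and all 5 endothelial markers were in the table. Of the leukocyte markers 1 of 2 was matched, and none of 3 red blood cell markers was. Slc14a2, a urea transporter of the inner medulla, ranged from 6.11 to 13.51 over the 31 animals. Its 4 highest animals were K137 at 13.51, K130 (SpD) at 12.99, K113 at 12.87, and K104 (IBA) at 12.24. These 4 animals lie in 4 different groups. How much of each kidney zone a fragment held, and a change of RNA within cells, cannot be told apart in these bulk samples.

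Few of the 9 genes passed a test across the 6 states. None of the 9 was DE by the F test across states at q under 0.001, against 9.34% of all genes. At q under 0.05, 2 of 9 passed, Adm and Epas1, against 46.1% of all genes. By unadjusted p under 0.05, 5 of 9 passed (Adm, Epas1, Egln3, Vegfa, and Vhl), against 56% of all genes. At least 1 of the 7 transitions of the seasonal and torpor cycles passed q under 0.001 for 1 of the 9 genes, Adm, against 5.64% of all genes. At q under 0.05 the count was 3 of 9 (Adm, Egln3, and Vegfa), against 44.5% of all genes. By the F test the share of the 9 genes called was thus at or below the share of all genes at each threshold. The highest and lowest state means of Adm lay 0.80 apart, a wider span than 91.6% of genes had, and those of the other 8 lay between 0.14 and 0.47 apart, with a median of 0.32 over all genes. The span was wider than that median for 5 of the 9 genes, and the residual SD was above its median over all genes for 5 of the 9 as well. No states next to each other in the order of any gene's state means differed at q under 0.05, and the lowest such q was 0.0671.

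**Figure D1:**
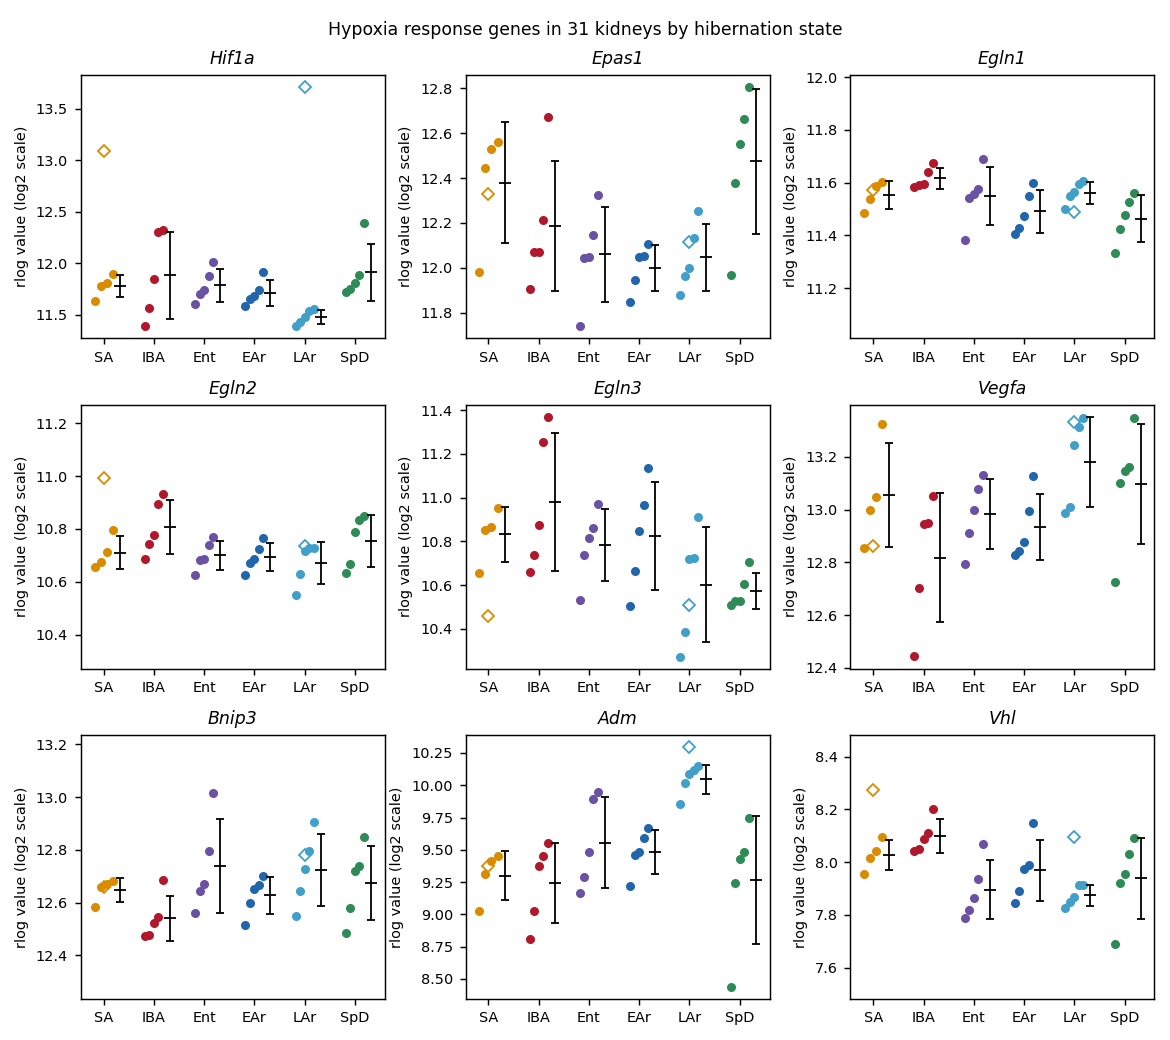
Batch-corrected rlog values (y axis, log2 scale) of the 9 genes in each animal by state (x axis). Filled points are the 29 animals of the fit, open diamonds are K113 (LAr) and K137 (SA), and the black bars are the mean and SD of the filled points. The 5 filled LAr points of Adm lie between 9.86 and 10.15, and the 2 diamonds of Hif1a lie above every other animal.

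Adm encodes adrenomedullin, a secreted peptide that widens blood vessels and is a HIF target. It was highest in later arousing kidneys. In the fitted model it was about 2-fold lower in interbout aroused and spring dark kidneys and 1.67-fold lower in summer active kidneys. In LAr, Adm was 9.86, 10.02, 10.09, 10.12, and 10.15, and K113, shown apart, had 10.30. In IBA it was 8.81, 9.02, 9.37, 9.45, and 9.55. The IBA and LAr animals did not overlap. In Ent it was 9.16, 9.29, 9.48, 9.89, and 9.94, so that 2 Ent animals reached above the lowest LAr animal. In EAr it was 9.22, 9.46, 9.48, 9.59, and 9.67, and in SA it was 9.02, 9.31, 9.41, and 9.45, with K137 at 9.38. In SpD it was 8.44, 9.24, 9.43, 9.48, and 9.74, with the lowest value in K130. All 5 LAr animals thus lay above every SA, IBA, EAr, and SpD animal.

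Adm was DE in IBA/LAr, where the fitted difference was -1.04 ± 0.18 (SE, q = 0.000676 by limma), a 2.06-fold fall. This was 1 of 9 genes at q under 0.001, against 1.43% of all genes in the same pair. The difference of the raw means, 9.24 and 10.04, is smaller than the fitted one because the model also fits experiment and sex. Without a term for experiment it was -0.80 (q = 0.00823), and within experiment 2 alone, with 2 IBA animals and 5 LAr animals, it was -0.96 (q = 0.00961). The call at 0.001 was also lost when any of 9 of the 29 animals was left out, 3 of IBA (K4, K7, and K104), 4 of LAr (K111, K112, K115, and K116), Ent K167, and SpD K3, with q at most 0.00654. Beside this difference, the log2 of the summed proximal tubule markers ran from 16.52 to 17.38 in IBA and from 17.21 to 17.54 in LAr. The same sum of the podocyte markers ran from 11.32 to 13.01 in IBA and from 13.00 to 13.39 in LAr. K104 and K7, the IBA animals with the lowest Adm, had the 2 lowest sums of IBA for both lists, and K104 had the highest Slc14a2 of IBA. K113, shown apart, had Adm at 10.30, above the other LAr animals, with sums of 16.31 and 12.66 and Slc14a2 at 12.87. In SA, where Adm was below LAr, the sums ran from 17.76 to 18.11 and from 13.14 to 13.60. The part of these cell types in the Adm difference was not tested. Adm was also lower in SpD than in LAr, with a difference of -1.02 ± 0.18 (SE, q = 0.000698), 1 of 9 genes against 2.01% of all genes. Without K130, whose Adm was 1.03 below the mean of the other SpD animals, this difference was -0.75 (q = 0.0123). Without a term for experiment it was -0.78 (q = 0.00813), and within experiment 2 alone it was -1.19 (q = 0.000363). The 0.001 call was lost when any of 12 of the 29 animals was left out, namely all 5 of LAr, SpD K3, K6, K84, and K130, IBA K4 and K104, and Ent K167. In SA/LAr it was -0.74 ± 0.17 (SE, q = 0.00316), and Adm was the only 1 of the 9 genes past 0.05 there, against 27.4% of all genes.

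The other pairs of states did not pass 0.05 for Adm in the model described above. In LAr/EAr the difference was 0.55 with a 95% confidence interval from 0.20 to 0.89 (q = 0.223), although the EAr and LAr animals did not overlap. It passed 0.05 in a fit of these 2 groups alone (0.55, q = 0.0179) and with each animal weighted by its spread (0.56, q = 0.00172). In Ent/IBA the difference was 0.31, from -0.03 to 0.65 (q = 0.209), and in EAr/Ent it was 0.18, from -0.20 to 0.57 (q = 0.806). In LAr/Ent it was 0.73, from 0.35 to 1.11 (q = 0.0671). From IBA to SpD it was 0.02, from -0.31 to 0.36 (q = 0.948). Across states the F test gave q = 0.00111 for Adm, close to the 0.001 threshold. It gave q = 0.000385 in all 31 animals, 0.0101 without a term for experiment, and between 0.000154 and 0.00377 with each animal left out, where 25 of 29 were at or above 0.001. The 3 genes whose values were most like those of Adm over the 29 animals were Ier2, an immediate early gene (Pearson's r = 0.848), the chloride channel gene Clcn2 (r = 0.841), and Bmp4, a growth factor gene (r = 0.826). These r values describe animals that share states, experiments, and tissue makeup.

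**Figure D2:**
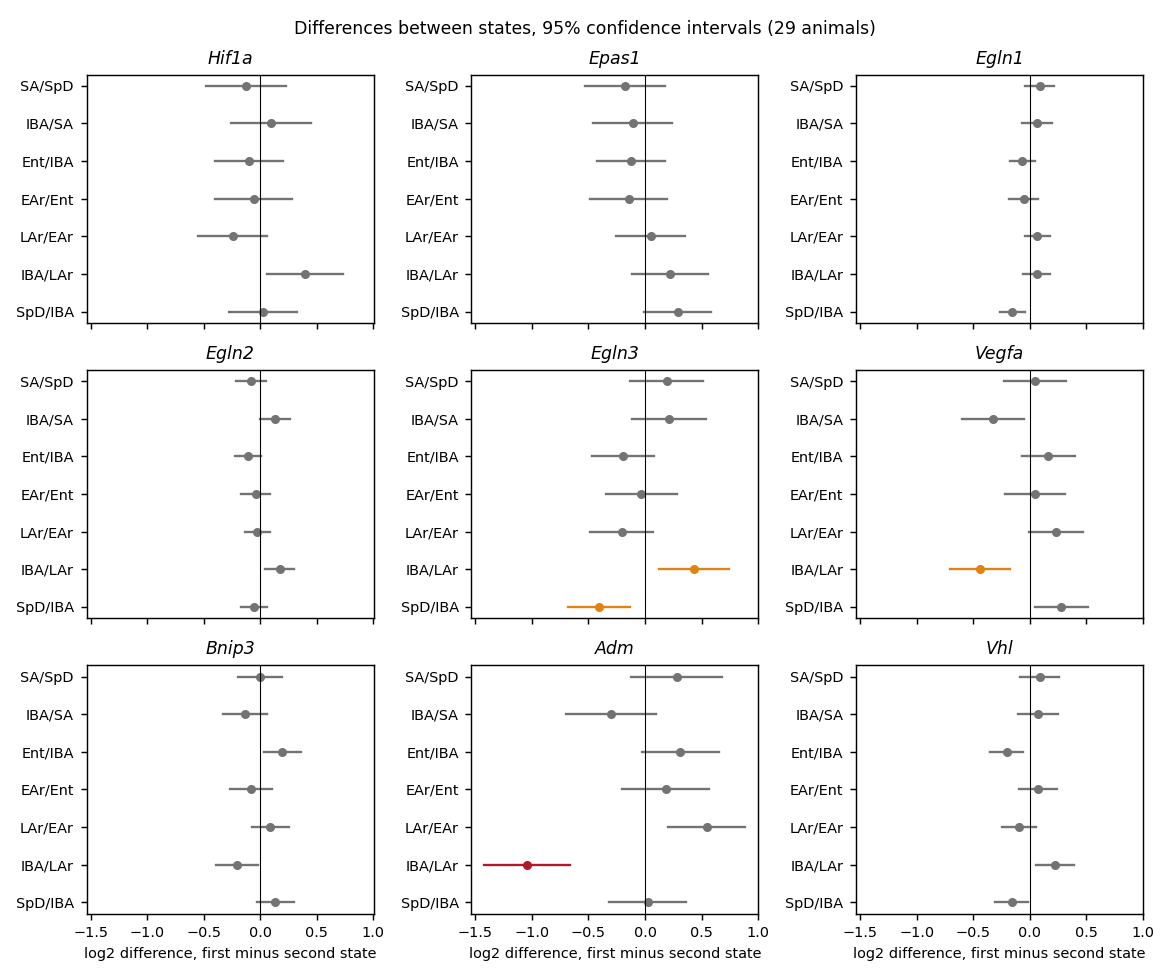
Fitted log2 differences (x axis) of the 9 genes for the 7 transitions (y axis, first minus second state), with points at the estimates and lines for 95% confidence intervals over 29 animals. Red marks q under 0.001, orange marks q under 0.05, and gray marks the rest. Adm in IBA/LAr, at -1.04, is the only red point, and the orange points are Egln3 in IBA/LAr and SpD/IBA and Vegfa in IBA/LAr.

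Epas1 and Hif1a encode the HIF alpha subunits, and Epas1 is known for its expression in endothelium and interstitial cells of the kidney. Epas1 was highest in the 2 warm seasons and lowest in the arousing states. In SpD it was 11.97, 12.38, 12.55, 12.66, and 12.81, and in SA it was 11.98, 12.45, 12.53, and 12.56, with K137 at 12.33. In EAr it was 11.85, 11.95, 12.05, 12.05, and 12.10, and in LAr it was 11.88, 11.97, 12.00, 12.14, and 12.25, with K113 at 12.12. Ent animals ran from 11.74 to 12.32 and IBA animals from 11.91 to 12.67. In SpD 4 of 5 animals lay above every EAr and LAr animal, and K6 lay within both groups.

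The F test across states gave q = 0.0319 for Epas1, past 0.05 but not 0.001. Epas1 was higher in SpD than in EAr by 0.56 ± 0.16 (SE, q = 0.0198), 1 of 9 genes past 0.05 against 19.2% of all genes. It was higher in SpD than in LAr by 0.51 ± 0.16 (SE, q = 0.0308). With Adm it was 1 of 2 genes past 0.05 in SpD/LAr, against 19.1% of all genes. Both Epas1 differences lost the 0.05 call without K130 (0.44 and 0.39 in the same order) or without K84, and the second did so also without LAr K111, K115, or K116. The F test lost it without SpD K3, K84, or K130, SA K138 or K139, or EAr K156, with q up to 0.104. In none of the 7 transitions did Epas1 pass 0.05. Within experiment 2, with 2 SpD animals and 5 animals of each arousing state, Epas1 was higher in SpD than in EAr by 0.73 (q = 0.000913) and than in LAr by 0.69 (q = 0.00133). In SpD/IBA the estimates were -0.05 (q = 0.939) within experiment 1 and 0.77 (q = 0.0143) within experiment 2, and this difference between experiments had q = 0.0968.

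The genes most like Epas1 over the 29 animals were Sox7 (Pearson's r = 0.896), an endothelial transcription factor gene, Ltbp4 (r = 0.892), which encodes a matrix protein, and Cdh5 (r = 0.884), the endothelial cadherin gene and 1 of the 5 endothelial markers. Beside this, the log2 of the summed endothelial markers ran from 13.06 to 14.06 in SpD, from 12.79 to 13.02 in EAr, and from 12.68 to 13.10 in LAr, with K130 highest of all animals. None of the 5 endothelial markers was absent. In K113 and K137, shown apart, the endothelial sum was 13.45 and 13.88, above the other animals of their groups. Epas1 was within the range of its group in both. Over all 31 animals the r values with Epas1 were 0.743 for Sox7, 0.864 for Ltbp4, and 0.79 for Cdh5. The part of endothelial content in the Epas1 differences was not tested.

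Hif1a did not pass 0.05 in any comparison of states in the model described above, and its most extreme values belonged to single animals. State means ran from 11.48 in LAr to 11.91 in SpD, and the F test gave q = 0.227. In LAr, Hif1a was 11.39, 11.43, 11.47, 11.54, and 11.56, the narrowest and lowest group. In IBA it was 11.39, 11.56, 11.84, 12.30, and 12.32. In SA it was 11.63, 11.77, 11.81, and 11.90, and in SpD it was 11.72, 11.75, 11.81, 11.89, and 12.39. Ent animals ran from 11.60 to 12.01 and EAr animals from 11.58 to 11.91. All LAr animals of the fit lay below every EAr, Ent, SA, and SpD animal, while IBA overlapped them. The difference in IBA/LAr was 0.40, with a 95% confidence interval from 0.06 to 0.73 (q = 0.0890), in SpD/LAr it was 0.43, from 0.09 to 0.76 (q = 0.0679), and in LAr/EAr it was -0.24, from -0.55 to 0.06 (q = 0.721). The IBA/LAr value depended on single animals. It was 0.22 (q = 0.413) without K104, 0.62 (q = 0.00707) without K171, and 0.03 (q = 0.962) in all 31 animals. It passed 0.05 also with animal weights (0.38, q = 0.0178). The F test passed 0.05 without K171 (q = 0.0345) and with animal weights (q = 0.0497). In SpD/LAr the difference was 0.59 (q = 0.021) within experiment 2, with 2 SpD animals, including K130, and 5 LAr animals.

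The 2 animals shown apart had the highest Hif1a of all 31. K113 had 13.71, which is 2.24 above the mean of the other LAr animals, and 0.606% of all genes lay at least as far from that mean in either direction. K137 had 13.09, which is 1.31 above the mean of the other SA animals, and 2.08% of genes lay as far. K130 was next at 12.39, which is 0.60 above the mean of the other SpD animals, and 15.3% of genes lay as far. K113, K137, and K130 were also the 3 highest animals for Slc14a2, at 12.87, 13.51, and 12.99, and K104, ranked 5 for Hif1a, ranked 4 for Slc14a2. K1 (IBA), ranked 4 for Hif1a at 12.32, had Slc14a2 at 9.67 and ranked 11. K84 (SpD), ranked 5 for Slc14a2 at 11.815, ranked 15 for Hif1a at 11.75, and K156 (EAr), ranked 6 for Slc14a2, ranked 21 for Hif1a. The 5 other LAr animals had Slc14a2 between 6.31 and 6.91. The log2 of the summed proximal tubule markers was 16.31 in K113 against 17.21 to 17.54 in the other LAr animals, and 16.84 in K137 against 17.76 to 18.11 in the other SA animals. In K130 it was 16.19, the lowest of SpD. The same sum of the thick ascending limb markers was 15.64 in K113 and 16.73 in K137, both within the range of their groups. In K130 it was 17.54, the highest of SpD. For the collecting duct markers it was 15.45 in K113, within the range of the other LAr animals, and 15.78 in K137, above the other SA animals. In K130 it was 15.86, the highest of SpD. The part of kidney zone in these Hif1a values was not tested.

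Epas1 did not stand apart with Hif1a in K113 or K137, where it was within the range of its group. For the 9 genes together, K113 lay outside the range of its group for 5, K137 for 4, and K130 for 7. Over all genes these shares were 72.9%, 63.4%, and 61.1%.

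**Figure D3:**
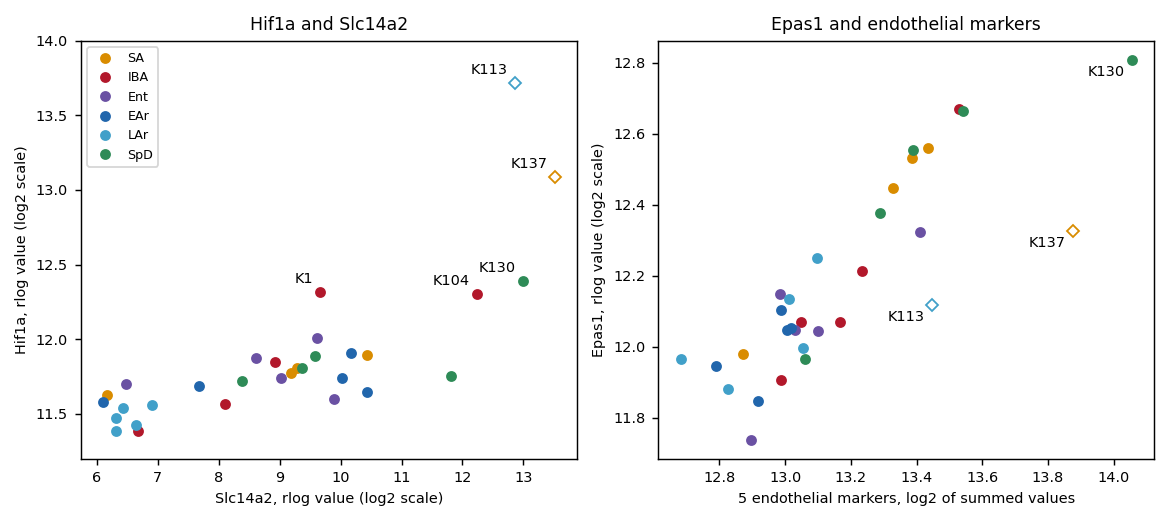
Left, Hif1a (y axis) against Slc14a2 (x axis), and right, Epas1 (y axis) against the log2 of the summed values of 5 endothelial markers (x axis), all from rlog values on the log2 scale, with 1 point for each of 31 animals colored by state and open diamonds for K113 and K137. K113, K137, and K130 lie at the upper right for Hif1a, with Slc14a2 at 12.87, 13.51, and 12.99, and K130 at 14.06 is the farthest right for the endothelial markers.

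Egln1, Egln2, and Egln3 encode the prolyl hydroxylases that mark HIF alpha subunits, and Egln3 is itself known as a strongly HIF-induced gene. Egln3 was the only 1 of the 3 that passed 0.05 in a transition in the model described above. In IBA it was 10.66, 10.74, 10.88, 11.25, and 11.37, in LAr it was 10.27, 10.38, 10.72, 10.72, and 10.91 with K113 at 10.51, and in SpD it was 10.51, 10.53, 10.53, 10.61, and 10.71. IBA overlapped LAr and SpD. Ent ran from 10.53 to 10.97, EAr from 10.51 to 11.14, and SA from 10.66 to 10.95, with K137 below the other SA animals at 10.46. Egln3 was higher in IBA than in LAr by 0.43 ± 0.15 (SE, q = 0.0461), and lower in SpD than in IBA, with a difference of -0.40 ± 0.13 (SE, q = 0.0492), where it was 1 of 9 genes against 11.9% of all genes. Both calls sat at the threshold. They were lost when any of 17 animals was left out in the first case and any of 18 in the second, of 29 in all, with q up to 0.196 and 0.144. Without IBA K171 the first difference was 0.27. The F test gave q = 0.0861. With animal weights the 2 differences were 0.62 (q = 0.00554) and -0.50 (q = 0.0174), and the F test of Egln3 gave q = 0.00922.

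Egln1 and Egln2 varied least of the 9 genes. Egln1 state means ran from 11.46 in SpD to 11.62 in IBA, a span narrower than in all but 8.32% of genes, and the F test gave q = 0.165. All 31 Egln1 values lay between 11.33 and 11.69. Every SpD animal was below every IBA animal, and the difference in SpD/IBA was -0.15, with a 95% confidence interval from -0.26 to -0.04 (q = 0.0600). Within experiment 2 it was -0.08 (q = 0.499). With animal weights it was -0.19 (q = 0.00932), and the F test of Egln1 gave q = 0.00703. Egln2 state means ran from 10.67 in LAr to 10.81 in IBA, and the F test gave q = 0.186. In IBA/LAr it was 0.17, from 0.04 to 0.30 (q = 0.0544). K137 had the highest Egln2 of all animals, 10.99, against at most 10.80 in the other SA animals.

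Vhl encodes the von Hippel-Lindau protein, the part of the ubiquitin ligase that recognizes hydroxylated HIF. Its values lay between 7.69 and 8.27 in all 31 animals. State means ran from 7.87 in LAr to 8.10 in IBA, and the F test gave q = 0.0857. IBA animals, from 8.04 to 8.20, lay above every LAr animal of the fit, from 7.83 to 7.91, while K113 had 8.10. The difference in IBA/LAr was 0.22, with a 95% confidence interval from 0.06 to 0.39 (q = 0.0546), and in Ent/IBA it was -0.20, from -0.35 to -0.06 (q = 0.0599). With each animal weighted by its spread, Ent/IBA was -0.33 (q = 0.000278) and the F test gave q = 0.000869.

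Vegfa encodes the vascular endothelial growth factor, made in the kidney by podocytes and tubule cells. It was lower in interbout aroused than in later arousing kidneys. In IBA it was 12.44, 12.70, 12.95, 12.95, and 13.05, and in LAr it was 12.99, 13.01, 13.24, 13.31, and 13.35, with K113 at 13.33. Only the highest IBA animal, K1, lay within the LAr range. SA ran from 12.85 to 13.32, with K137 at 12.86, Ent from 12.79 to 13.13, EAr from 12.83 to 13.13, and SpD from 12.73 in K130 to 13.35. The difference in IBA/LAr was -0.44 ± 0.13 (SE, q = 0.0198), a 1.36-fold fall, and it lost the 0.05 call without IBA K104 or LAr K111 (q up to 0.140). With animal weights it was -0.41 (q = 0.00776). The F test of Vegfa gave q = 0.0724, and 0.0273 with animal weights. In this pair 3 of 9 genes passed 0.05 (Adm, Egln3, and Vegfa), against 18% of all genes, and 7 of 9 had an unadjusted p under 0.05, against 33.4% of all genes. Of these 7, Adm, Vegfa, and Bnip3 had lower estimates in IBA and Hif1a, Egln2, Egln3, and Vhl had higher ones. Beside the Vegfa difference, the log2 of the summed podocyte markers ran from 11.32 to 13.01 in IBA and from 13.00 to 13.39 in LAr. The part of podocyte content in it was not tested.

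Bnip3 encodes a receptor on the mitochondrial outer membrane that leads mitochondria to autophagy, and it is a HIF target. It did not pass 0.05 in any comparison of states in the model described above. State means ran from 12.54 in IBA to 12.74 in Ent, and the F test gave q = 0.250, the highest of the 9 genes. In Ent/IBA the difference was 0.20, with a 95% confidence interval from 0.03 to 0.36 (q = 0.102), and in IBA/LAr it was -0.20, from -0.39 to -0.02 (q = 0.113). In Ent/IBA it was 0.31 (q = 0.250) within experiment 1 and 0.0025 (q = 0.995) within experiment 2, and 0.13 (q = 0.274) without Ent K8. In IBA/LAr it was -0.11 (q = 0.532) within experiment 2. With animal weights these differences were 0.16 (q = 0.0430) and -0.24 (q = 0.0172). IBA values ran from 12.48 to 12.68 and Ent values from 12.56 to 13.02, so that the groups overlapped. K113 and K137, at 12.78 and 12.66, lay within their groups.

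The sexes did not differ for any of the 9 genes at q under 0.001, against 0.0233% of all genes, or by unadjusted p under 0.05, against 6.41% of all genes. Estimates, male minus female, ran from -0.08 for Vegfa to 0.09 for Egln3.

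The rest of the pathway was read from 6 lists of 94 genes, of which 82 were in the table. Pgk1 had 3 rows and Rbx1 had 2, and the row of highest mean was taken for each. Across states 8 of the 82 were DE at q under 0.001 and 35 at q under 0.05, beside the 9.34% and 46.1% of all genes. The median difference over the 82 genes was between -0.03 and 0.06 in each of the 7 transitions, and over all genes it was between -0.01 and 0.03. In IBA/LAr the median was 0.17 over the 9 hypoxia response genes and 0.02 over the 82.

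Of 16 regulators of HIF in the table, 1 was DE across states and 4 passed 0.05. Cited2, which competes with HIF for its coactivators, had q = 0.000102, with means of 12.04 ± 0.32 in SpD and 11.12 ± 0.14 in EAr (SD, n = 5 each). It was higher in SpD than in IBA by 0.52 (q = 0.0102). Cul2, the cullin of the Vhl ligase, had q = 0.00135 and was higher in IBA than in LAr by 0.25 (q = 0.00678).

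Of 14 glycolysis genes, 2 were DE across states and 7 passed 0.05. Ldha, lactate dehydrogenase A, had q = 0.000225 and was lowest in SpD, below IBA (difference -0.44, q = 0.00995). Pgk1, phosphoglycerate kinase, had q = 0.000859 and was lower in IBA than in SA (difference -0.33, q = 0.00266). In IBA/SA 4 of the 14 were lower at q under 0.05 and 0 were higher, where 22.9% of all genes passed (1605 lower and 1337 higher of 12863).

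Of 16 vascular and adrenomedullin signaling genes, 1 was DE and 6 passed 0.05. Edn1, the vasoconstrictor endothelin, had q = 6.93e-05, with a mean of 7.40 ± 0.13 (SD, n = 4) in SA against 8.29 to 8.34 in Ent, EAr, and LAr. Edn1 was higher in IBA than in SA by 0.57 (q = 0.0198). The adrenomedullin receptor genes were named for their role after their values were seen. Calcrl, the receptor itself, had q = 0.200 across states, and its partners Ramp2 and Ramp3 had q = 0.0110 and 0.0554. None of the 16 passed 0.05 in IBA/LAr, where 18% of all genes did. There Calcrl differed by 0.40 (q = 0.262), Ramp2 by 0.29 (q = 0.155), and Ramp3 by 0.23 (q = 0.369).

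Of 9 genes of mitochondria and mitophagy, 1 was DE and 5 passed 0.05. Pink1, a kinase that marks damaged mitochondria, had q = 4.71e-06. It fell in IBA/SA, where the difference was -0.46 ± 0.07 (SE, q = 3.73e-05), and rose in SpD/IBA by 0.42 ± 0.06 (SE, q = 4.33e-05). Bnip3, in the same process, differed by -0.13 (q = 0.325) and 0.13 (q = 0.298) in the same pairs.

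Of 11 lipid droplet genes, 1 was DE and 7 passed 0.05. Dgat1, which makes triglyceride, had q = 0.000896 and was lower in IBA than in LAr (difference -0.42, q = 0.00791). Plin2, a droplet coat protein, had q = 0.00833 and was lower in SpD than in IBA (difference -0.97 ± 0.22 SE, q = 0.00684). Of 16 other HIF targets, 2 were DE and 6 passed 0.05. Ddit4, an inhibitor of mTOR signaling, had q = 8.22e-06, with means of 9.91 ± 0.15 in SpD and 8.89 ± 0.17 in EAr (SD, n = 5 each), and was higher in LAr than in EAr by 0.56 (q = 0.0318). P4ha1, a collagen prolyl hydroxylase, had q = 2.84e-05, with means of 11.02 ± 0.10 (SD, n = 4) in SA and 10.42 ± 0.10 (SD, n = 5) in EAr. Ndrg1, a stress-responsive gene named here after its values were seen, fell in IBA/SA, where the difference was -1.38 ± 0.24 (SE, q = 0.000392).

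**Figure D4:**
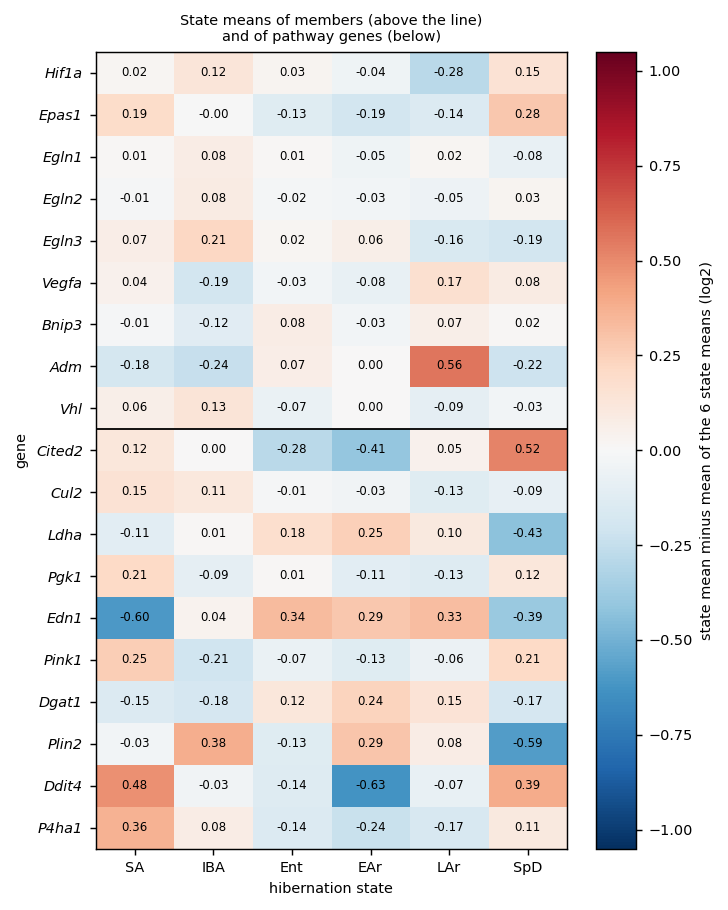
State means of 29 animals, each minus the mean of the gene's 6 state means (color and printed value, log2 scale), with states on the x axis and genes on the y axis, the 9 hypoxia response genes above the line and 10 pathway genes below it. Adm in LAr, at 0.56, is the most extreme cell above the line, and Ddit4 in EAr, at -0.63, is the most extreme below it.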

How the data were processed

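Per the labels and the study's methods, the authors made libraries with the TruSeq kit (experiment 1) or the Nugen kit (experiment 2), and trimming was by cutadapt. Of the animals here, 9 were in experiment 1 and 22 in experiment 2. Another SA animal, K136, which the study also removed as an outlier, is not among them. Mitochondrial reads were taken out with HISAT2, and Salmon then quantified the transcripts annotated on HiC_Itri_2. Genes with low values were dropped, and the authors turned gene sums into rlog values with DESeq2 and corrected these for batch by limma. What the authors deposited is thus on the log2 scale. The table holds neither counts nor depth, which leaves counting error unknown, and precision is the spread between animals.

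The study's DE test ran on counts. Here all 12863 genes were fitted by limma 3.58.1 (R 4.3.3) with state, sex, and experiment as terms and an intensity trend, in 29 animals, by code tested on simulated data. The degree of freedom that batch correction used up is not counted. Alternatives were all 31 animals, no K130, experiment 2 only, no experiment term, no sex term, no intensity trend, a robust prior, animal weights, median centering, a mean of at least 8, a threshold of 0.05, a fit of the 2 groups compared, and each animal left out. Marker sums are the log2 of summed values after undoing the log. Named genes are the hypoxia response genes, the 2 genes of lowest F test q in each list, and the 3 genes most correlated with Adm and with Epas1, apart from 2 list genes that are not reported here. The genes and lists were chosen with earlier results of these data known. No sequence or position is given, since the annotation at hand was of another assembly, in which all 10 symbols were found. Plots used matplotlib 3.10.9 (Python 3.11.15).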

Additional observations from a re-analysis of the deposited data

Results flagged for a closer look

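Dixon's test at 95% was run on 54 groups of 5 or 6 animals, with K113 and K137 included. In 5 of the groups an animal lay far from the others, and chance flags about 1 in 20. No rate can be read from this, since 3 of the 5 flags fell on K113 and K137, which the study removed as outliers and which lay outside their groups for 72.9% and 63.4% of all genes. Hif1a was 13.09 in K137 (SA), where the nearest other animal had 11.90, 13.71 in K113 (LAr), where the nearest had 11.56, and 12.39 in K130 (SpD), where the nearest had 11.89. Vhl was 8.10 in K113, against at most 7.91 in the other LAr animals. Bnip3 was 12.58 in K141, the lowest of SA, but the whole group spanned only 12.58 to 12.68. None of 18 tests of whether Ent/IBA or SpD/IBA differed between experiments passed q under 0.05 for the 9 genes by limma. Over all genes 0 passed for Ent/IBA and 236 of 12863 for SpD/IBA. The lowest q of the 9 genes in each pair was that of Epas1, 0.476 in Ent/IBA and 0.0968 in SpD/IBA.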

How the results depend on the processing

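The count of genes DE across states, 0 in the model reported, was 1 in all 31 animals, without K130, without a sex term, and with median centering, 2 with animal weights, 2 at a threshold of 0.05, and 0 to 1 with each animal left out. The count with at least 1 DE transition, 1 as reported, was 0 in experiment 2 only, without an experiment term, and in a fit of the 2 groups compared, 2 with animal weights, 3 at a threshold of 0.05, and 0 to 1 with each animal left out. Of the 82 pathway genes, 8 were DE, with 13 by animal weights, 35 at a threshold of 0.05, and 6 to 9 with each animal left out. At the threshold of 0.05, 46.1% of all genes passed the F test and 44.5% passed in at least 1 transition. For the other alternatives the share of all genes is not given here, so these counts cannot be set against it. The cause of the changes in the counts was not tested. In the fit of the 2 groups, Adm in IBA/LAr was -0.96 (q = 0.0476). None of the differences with an unadjusted p under 0.05 in a transition, or q under 0.05 in another pair, changed direction in any alternative or left-out animal. No paired analysis was possible because the groups share no replicate numbers. Depth is unknown.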
